A study of Mus musculus with 10 samples.

Results

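The lymphoid homing and egress axis was followed through 7 genes, the transcription factors Foxo1, Klf2 and Klf3 and the receptors S1pr1, S1pr4, S1pr5 and Ccr7. They were taken by gene symbol from the 19938 genes measured, and each was read by 1 probe set. Expression was measured on 10 Affymetrix Mouse Gene ST 1.0 arrays of splenic regulatory T cells (Tregs) of female C57BL/6 mice aged 9 to 14 weeks. All cells were sorted as CD4+ cells with a red fluorescent Foxp3 reporter, and then by CD62L, CD69 and Klrg1. FR3 Klrg1+ Tregs (CD62Llo CD69+ Klrg1+) had 1 array, FR3 Klrg1- Tregs (CD62Llo CD69+ Klrg1-) had 4, FR2 Tregs (CD62Llo CD69- Klrg1-) had 2 and FR1 Tregs (CD62Lhi CD69- Klrg1-) had 2. The remaining array was titled FR3 with the marker text of FR1 and was placed in no group. Arrays of a group are described as biological replicates, and their number limits the precision of every value.

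FOXO1 is kept out of the nucleus when antigen receptor, CD28 and cytokine signals activate PI3K and AKT. In resting T cells nuclear FOXO1 switches on Klf2, and KLF2 in turn switches on S1pr1. S1PR1 senses sphingosine-1-phosphate (S1P) in blood and lymph and draws T cells out of lymphoid organs, while CCR7 brings them into lymph nodes and the T zones of the spleen. The CD69 protein, a gate marker here, binds S1PR1 and removes it from the cell surface.

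The promoters of Klf2, Klf3 and S1pr4 are shown because these genes fell together in FR3 Klrg1- Tregs and differ in the letters that KLF proteins recognise. The sequences are the 250 bases before the start of each gene from RefSeq, GRCm38.p6, on the strand of the gene, and 5 of the 7 genes had an entry. Capitals mark the KLF element CCNCNCCC on either strand, with overlapping matches run together.
Klf2 (chr8:72318812-72319061, plus strand): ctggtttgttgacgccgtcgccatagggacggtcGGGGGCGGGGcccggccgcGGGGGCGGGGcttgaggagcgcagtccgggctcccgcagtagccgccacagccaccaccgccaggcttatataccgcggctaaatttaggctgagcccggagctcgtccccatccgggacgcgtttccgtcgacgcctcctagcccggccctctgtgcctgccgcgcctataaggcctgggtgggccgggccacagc
Klf3 (chr5:64803271-64803520, plus strand): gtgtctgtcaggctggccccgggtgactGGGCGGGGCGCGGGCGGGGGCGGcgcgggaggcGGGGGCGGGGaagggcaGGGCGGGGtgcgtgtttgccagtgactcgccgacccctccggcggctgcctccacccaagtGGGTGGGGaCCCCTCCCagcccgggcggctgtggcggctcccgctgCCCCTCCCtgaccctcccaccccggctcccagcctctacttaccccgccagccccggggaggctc
S1pr4 (chr10:81500138-81500387, minus strand): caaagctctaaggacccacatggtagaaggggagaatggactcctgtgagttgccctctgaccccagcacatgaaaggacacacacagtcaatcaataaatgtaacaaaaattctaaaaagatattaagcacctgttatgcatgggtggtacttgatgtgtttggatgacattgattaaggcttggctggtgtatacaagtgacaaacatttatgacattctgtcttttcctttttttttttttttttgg

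The Klf2 promoter held 4 matches to this element, all on the opposite strand, and the Klf3 promoter held 10, of which 2 lay on the same strand. The S1pr4 promoter held 0 and was 38.8% G and C, against 71.2% for Klf2 and 78.4% for Klf3. Foxo1 had 1 match and S1pr5 had 2. The element was present in 45.9% of 32851 promoter windows of the same length. The forkhead element GTAAACA, searched on both strands, was in none of the 5 promoters and in 3.17% of all windows. These are matches of letters in 1 window, not binding sites.

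The arrays fell into 2 sets that crossed the groups. The first held FR3 Klrg1- replicates 1 and 2, FR2 and FR1, and the second held FR3 Klrg1+ and FR3 Klrg1- replicates 3 and 4. Arrays correlated at 0.972 to 0.992 within a set and at 0.901 to 0.921 between sets, and medians lay between 6.15 and 6.31 (RMA, log2). The labels used here do not say what separated the sets, so groups were compared within a set, in 1 limma fit with the set as a block. A gene was called at an adjusted p (Benjamini-Hochberg over all genes) under 0.05. Fold changes below are log2 differences ± SE, and a log2 difference of 1 is a doubling. T cell markers averaged 10.9 to 11.3 on every array. Of the lists of other cell types, the NK list was lowest at 3.97 to 4.58 and the CD8 list highest at 6.57 to 7.19.

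Foxo1 levels in the first set were 9.94 and 10.01 in FR3 Klrg1- replicates 1 and 2, 10.34 and 10.28 in FR2, and 10.32 and 10.44 in FR1. The FR3 Klrg1- arrays lay below the other 4 arrays, and FR2 and FR1 overlapped. The difference was -0.41 ± 0.13 against FR1 (95% interval -0.67 to -0.14, limma adjusted p = 0.0645) and -0.34 ± 0.13 against FR2 (adjusted p = 0.177), neither of which passed. The difference against FR1 passed in 5 of the 9 alternative settings (limma adjusted p = 0.0203 to 0.0423). Leaving out FR3 Klrg1- replicate 3 or 4 takes the spread from the first set alone. That equals 1 of these settings, so it adds no separate support. FR2 differed from FR1 by -0.07 (95% interval -0.34 to 0.20). In the second set Foxo1 stood at 8.29 in FR3 Klrg1+, against 8.85 and 8.76 in FR3 Klrg1- replicates 3 and 4, a difference of -0.52 ± 0.15 that did not pass (limma adjusted p = 0.069).

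Klf2, the factor that maintains T cell quiescence and S1pr1 transcription, was stepped across the first set. It stood at 9.15 and 9.48 in FR3 Klrg1- replicates 1 and 2, at 10.61 and 10.60 in FR2, and at 11.09 and 11.43 in FR1. No 2 of these groups overlapped, and FR3 Klrg1- was lowest. In FR3 Klrg1- Tregs Klf2 fell by 1.94 ± 0.15 against FR1, a 3.84-fold difference (limma adjusted p = 6.77e-07), and fell by 1.29 ± 0.15 against FR2 (2.45-fold, adjusted p = 1.36e-04). In FR2 it fell by 0.65 ± 0.15 against FR1 (1.57-fold, adjusted p = 0.0231). That last call was lost without FR1 replicate 2 (-0.48, limma adjusted p = 0.267), without FR2 replicate 1 (-0.66, 0.173) or without FR2 replicate 2 (-0.64, 0.112). In the second set Klf2 was at 7.73 in FR3 Klrg1+, against 7.64 and 7.71 in FR3 Klrg1- replicates 3 and 4, and the difference of 0.05 had a 95% interval of -0.34 to 0.45.

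Klf3 encodes a related factor that mostly represses transcription. It stood at 9.01 and 9.20 in FR3 Klrg1- replicates 1 and 2, 9.96 and 9.82 in FR2, and 9.99 and 9.94 in FR1. Both FR3 Klrg1- arrays lay below the other 4, and FR2 overlapped FR1. In FR3 Klrg1- Tregs Klf3 fell by 0.86 ± 0.13 against FR1 (1.82-fold, limma adjusted p = 4.57e-04) and fell by 0.79 ± 0.13 against FR2 (1.73-fold, adjusted p = 0.0025). The call against FR2 was lost without FR2 replicate 1 (-0.72, limma adjusted p = 0.055) and without FR3 Klrg1- replicate 1 (-0.69, 0.0621). FR2 differed from FR1 by -0.08 (95% interval -0.36 to 0.21). In the second set Klf3 was at 8.77 in FR3 Klrg1+, below 9.04 and 9.18 in FR3 Klrg1- replicates 3 and 4, a difference of -0.34 ± 0.16 (limma adjusted p = 0.266).

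S1pr1, the egress receptor, separated the CD69+ from the CD69- Tregs most widely of the 7 genes in the first set. It stood at 9.65 and 9.75 in FR3 Klrg1- replicates 1 and 2, 11.90 and 11.86 in FR2, and 12.09 and 12.05 in FR1. The SD within a pair of replicates was at most 0.08, far below the gap between FR3 Klrg1- and the other groups. In FR3 Klrg1- Tregs S1pr1 fell by 2.37 ± 0.12 against FR1, a 5.17-fold difference (limma adjusted p = 2.17e-08), and fell by 2.18 ± 0.12 against FR2 (4.53-fold, adjusted p = 2.15e-07). The FR2 and FR1 arrays did not overlap, but their difference of -0.19 ± 0.12 did not pass (95% interval -0.46 to 0.07, limma adjusted p = 0.485). FR3 Klrg1+ stood at 9.20, below 9.66 and 9.71 in FR3 Klrg1- replicates 3 and 4, a difference of -0.49 ± 0.15 that did not pass (limma adjusted p = 0.081).

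S1pr4 encodes an S1P receptor found mainly on lymphocytes and other haematopoietic cells. It stood at 9.03 and 8.84 in FR3 Klrg1- replicates 1 and 2, 10.07 and 9.87 in FR2, and 10.32 and 10.34 in FR1. The 3 groups did not overlap, with FR3 Klrg1- lowest and FR1 highest. In FR3 Klrg1- Tregs S1pr4 fell by 1.40 ± 0.16 against FR1 (2.64-fold, limma adjusted p = 2.47e-05) and fell by 1.04 ± 0.16 against FR2 (2.05-fold, adjusted p = 0.0012). FR2 differed from FR1 by -0.36 ± 0.16, which did not pass (95% interval -0.70 to -0.03, limma adjusted p = 0.241). In the second set the FR3 Klrg1+ array, at 8.06, lay between FR3 Klrg1- replicates 3 and 4, at 7.68 and 8.13, and the difference of 0.16 had a 95% interval of -0.25 to 0.57.

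S1pr5, an S1P receptor known for the egress of NK cells, stayed between 5.89 and 6.16 on all 9 grouped arrays. These levels were at the percentiles 39.5 to 47.1 of all genes on an array, and no comparison passed. The differences ran between -0.10 and 0.08, and their 95% intervals reached -0.40 and 0.45 at most. Every group pair that was compared overlapped.

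Ccr7, the receptor for the T zone chemokines CCL19 and CCL21, followed another order. It stood at 10.44 and 10.49 in FR3 Klrg1- replicates 1 and 2, 10.10 and 10.14 in FR2, and 11.67 and 11.79 in FR1. FR2, not FR3 Klrg1-, was lowest, and no groups overlapped. Against FR1, Ccr7 fell by 1.27 ± 0.13 in FR3 Klrg1- (2.40-fold, limma adjusted p = 1.12e-05) and fell by 1.61 ± 0.13 in FR2 (3.06-fold, adjusted p = 4.06e-06). FR3 Klrg1- differed from FR2 by 0.35 ± 0.13, which did not pass (95% interval 0.07 to 0.63, limma adjusted p = 0.177). In the second set Ccr7 fell to 6.84 in FR3 Klrg1+, against 9.15 and 9.37 in FR3 Klrg1- replicates 3 and 4. The difference of -2.42 ± 0.16 was 5.34-fold (limma adjusted p = 1.27e-06), and the 1 array of FR3 Klrg1+ was assumed to vary like the others.

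**Figure D1:**
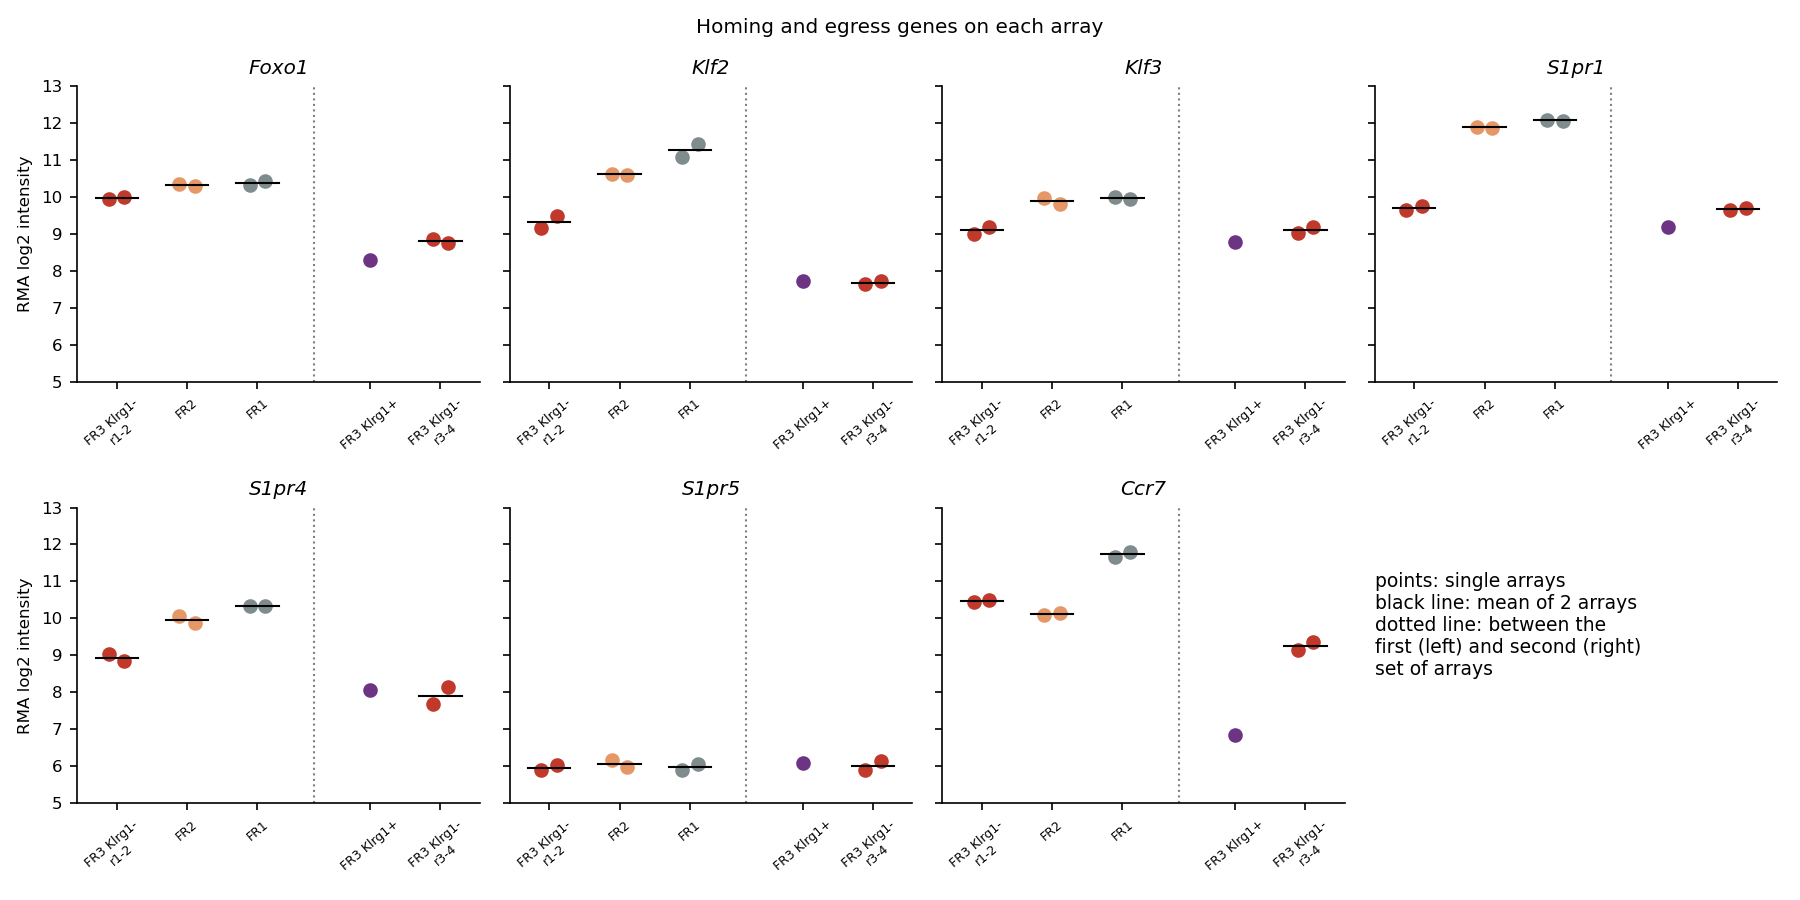
RMA log2 level (y axis) of each gene on the 9 grouped arrays, with FR3 Klrg1- replicates 1 and 2, FR2 and FR1 left of the dotted line and FR3 Klrg1+ and FR3 Klrg1- replicates 3 and 4 right of it. Points are arrays and black lines are means of 2 arrays. S1pr1 was at 9.65 and 9.75 in FR3 Klrg1- replicates 1 and 2 and at 11.86 or above on the FR2 and FR1 arrays, while S1pr5 stayed between 5.89 and 6.16.

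The comparison of FR3 Klrg1- with FR1 set CD69+ CD62Llo Tregs against CD69- CD62Lhi Tregs. Of the 7 genes, 5 fell and 0 rose (limma, 6 lower and 0 higher at an unadjusted p under 0.05), against 3.79% of all genes that fell and 4.39% that rose. Klf2, Klf3, S1pr1, S1pr4 and Ccr7 were called, while Foxo1 and S1pr5 were not. The median of the 7 differences was -1.27, and that of all genes was 0.02. Klf2, Klf3, S1pr1 and S1pr4 also passed without the array set as a block, while Ccr7 did not (-1.87, limma adjusted p = 0.0571). That fit adds FR3 Klrg1- replicates 3 and 4 of the second set, so the set difference enters it and it is no separate support. Klf2 and S1pr4 were lower in the second set within FR3 Klrg1-.

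The comparison of FR3 Klrg1- with FR2 changed the CD69 gate, since both are CD62Llo and Klrg1-. Of the 7 genes, 4 fell and 0 rose (limma, 5 lower and 1 higher at an unadjusted p under 0.05), against 1.94% of all genes that fell and 2.81% that rose. The 4 were Klf2, Klf3, S1pr1 and S1pr4. The median difference was -0.79, and that of all genes was -0.0035. Without the block S1pr1 alone was called (-2.19, limma adjusted p = 3.41e-04), and Ccr7 turned to -0.25 (limma adjusted p = 0.811). The Cd69 transcript itself did not follow the gate, with 12.02 and 12.15 in FR3 Klrg1- replicates 1 and 2 and 11.86 and 12.17 in FR2, a difference of 0.07 ± 0.18 (limma adjusted p = 0.918). In FR1, also CD69-, it was at 12.11 and 12.41. There FR3 Klrg1- differed by -0.17 ± 0.18 (limma adjusted p = 0.723). In bulk samples, fewer cells with a transcript and less of it per cell cannot be told apart.

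The comparison of FR2 with FR1 changed the CD62L gate, since both are sorted as CD69- Klrg1-. Of the 7 genes, Ccr7 and Klf2 fell and 0 rose (limma, 3 lower and 0 higher at an unadjusted p under 0.05), against 2.3% of all genes that fell and 1.96% that rose. The median difference was -0.19, and that of all genes was 0.02. Without the block 0 of the 7 passed (limma, 1 at an unadjusted p under 0.05), with Ccr7 at an adjusted p of 0.488. The Klrg1 transcript was nevertheless higher in FR2, at 6.58 and 6.44, than in FR1, at 5.43 and 5.78, by 0.90 ± 0.19 (limma adjusted p = 0.0140). That call was lost without FR1 replicate 1 (0.73, limma adjusted p = 0.144), FR2 replicate 1 (0.83, 0.173) or FR2 replicate 2 (0.97, 0.0569). Klrg1 was also higher in FR3 Klrg1- against FR1, by 1.27 ± 0.19 (limma adjusted p = 3.95e-04).

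The comparison of FR3 Klrg1+ with FR3 Klrg1- rested on 1 array against 2. Ccr7 alone fell and 0 rose (limma, 3 lower and 0 higher at an unadjusted p under 0.05), against 2.82% of all genes that fell and 2.14% that rose. The median difference was -0.34, and that of all genes was 8.55e-04. Without the block the difference of Ccr7 was -3.02 and did not pass (limma adjusted p = 0.105). Foxo1 and S1pr1 passed when the prior variance followed intensity (limma adjusted p = 0.0272 and 0.022). Both also passed when dim genes were left out (limma adjusted p = 0.0385 and 0.0467).

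**Figure D2:**
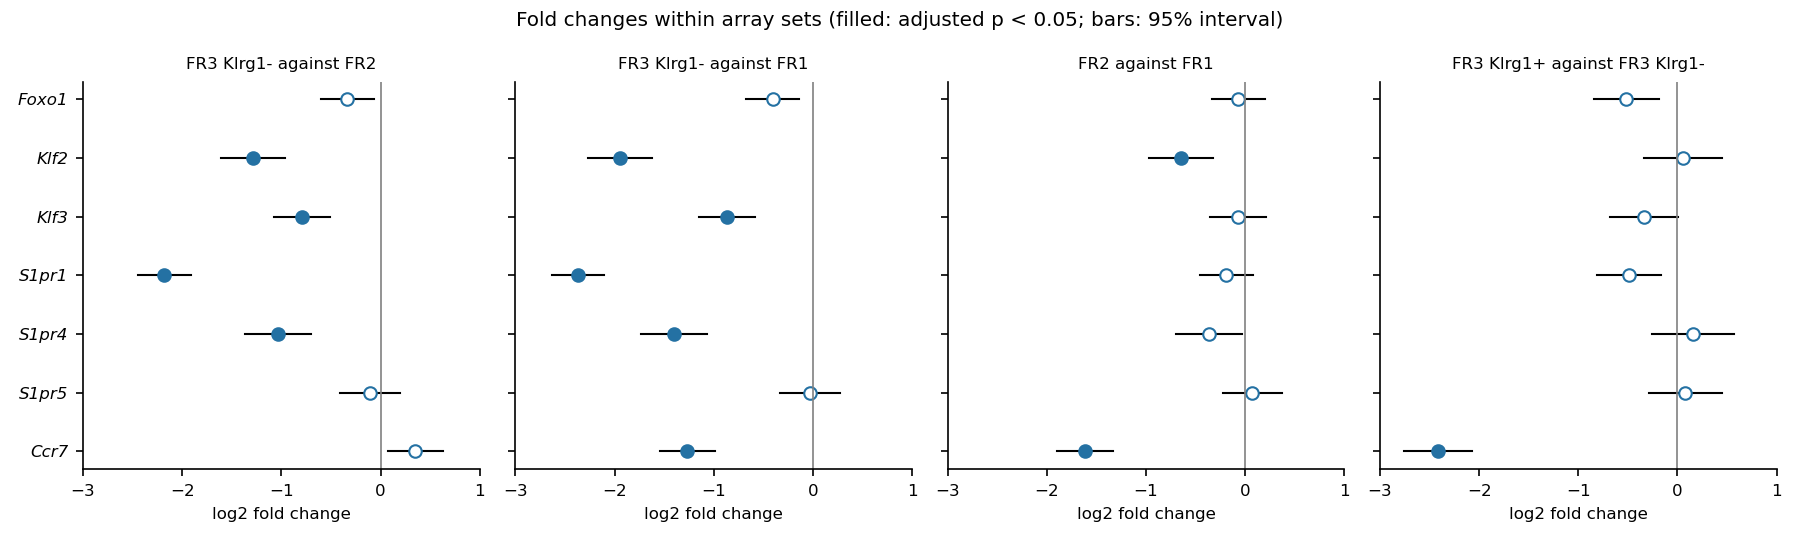
Log2 fold change (x axis) of each gene (rows) in the 4 comparisons, each made within its array set. Points are limma estimates, bars are 95% intervals, and filled points passed an adjusted p of 0.05. Ccr7 was filled in every panel but FR3 Klrg1- against FR2, where 4 other genes were.

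The CD62L step and the CD69 step were set against each other gene by gene, a contrast chosen after the values were seen. It subtracts FR2 minus FR1 from FR3 Klrg1- minus FR2, so both steps share the FR2 arrays. S1pr1 changed more at the CD69 step, by -1.99 ± 0.22 (limma adjusted p = 1.39e-04). For Ccr7 the steps had opposite signs, -1.61 at the CD62L step and 0.35, not called, at the CD69 step. Its contrast of 1.96 ± 0.23 (limma adjusted p = 2.20e-04) is therefore a signed difference, not the excess in size of 1 step. These 2 of 7 genes passed, against 2.67% of all genes. Klf2 (-0.64 ± 0.26), Klf3 (-0.71 ± 0.23) and S1pr4 (-0.67 ± 0.27) did not pass, nor did Foxo1 and S1pr5. Without the block Ccr7 was at 1.36 and did not pass (limma adjusted p = 0.965).

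**Figure D3:**
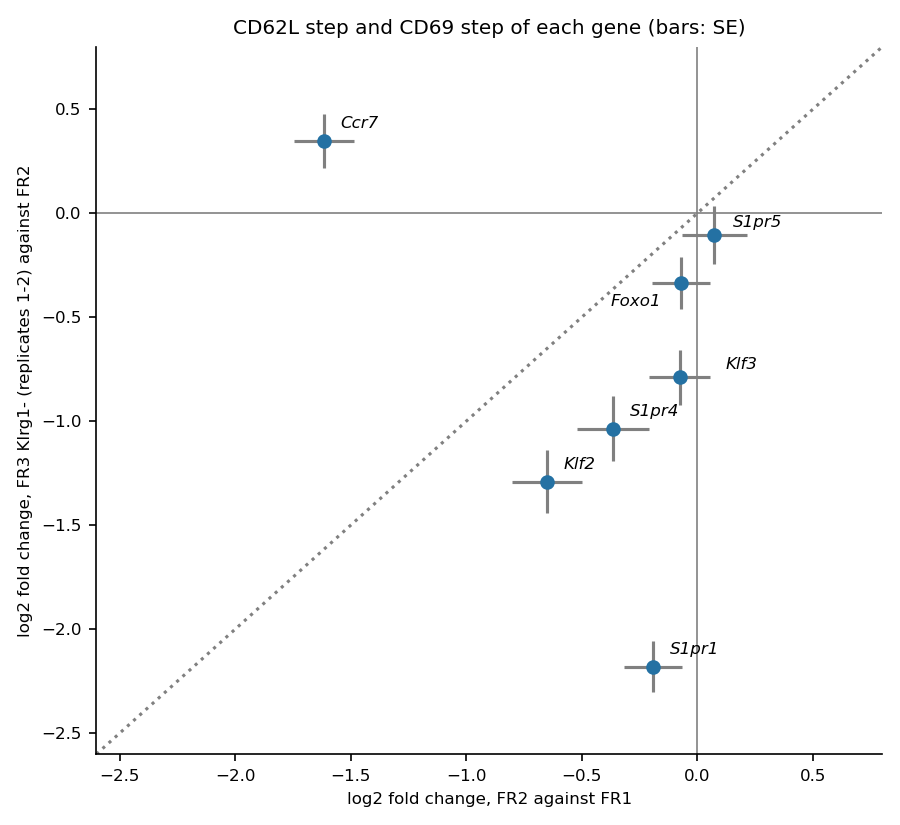
Log2 fold change of FR3 Klrg1- (replicates 1 and 2) against FR2 (y axis) and of FR2 against FR1 (x axis) for the 7 genes. Bars are SE and the dotted line marks equal change in both steps. S1pr1 lay far below the line at -0.19 and -2.18, and Ccr7 far above it at -1.61 and 0.35.

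FR3 Klrg1- was the one group with arrays in both sets, which gave the size of the set difference in cells of 1 label. In the first set against the second, Foxo1 was higher by 1.17 ± 0.13, Klf2 by 1.64 ± 0.15, S1pr4 by 1.03 ± 0.16 and Ccr7 by 1.21 ± 0.13 (limma adjusted p at most 8.87e-05). These 4 of 7 compare with 19.3% of all genes that were higher and 18.9% that were lower. S1pr1 differed by 0.02 (95% interval -0.25 to 0.28), Klf3 by -0.01 (-0.29 to 0.28) and S1pr5 by -0.06 (-0.36 to 0.24). Among the measured sort genes, Cd69 was higher in the first set by 2.11 ± 0.18 (limma adjusted p = 2.60e-07). Cd4 was higher by 1.68 ± 0.13 (limma adjusted p = 1.46e-07) and Foxp3 by 0.89 ± 0.15 (2.25e-04). Klrg1 differed by -0.49 ± 0.19 and did not pass (limma adjusted p = 0.0547). A level in FR3 Klrg1+ was therefore not compared with one in FR2 or FR1.

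Some genes on other lists of the pathway were called. Among all genes, 3.79% fell and 4.39% rose in FR3 Klrg1- against FR1, and 1.94% and 2.81% against FR2. In FR2 against FR1 the shares were 2.3% and 1.96%, and in FR3 Klrg1+ against FR3 Klrg1- 2.82% and 2.14%. Counts of called list and marker genes below stand beside these shares, and no list was tested as a set. The genes named below as risen or fallen passed limma's adjusted p of 0.05. Apart from Il7r, Lgals3 and Cd8b1, they passed it whichever of 8 arrays was left out. An array in the other set, or in neither group of a comparison, enters only the pooled spread. Leaving it out could not move the difference. In FR3 Klrg1+ against FR3 Klrg1- only FR3 Klrg1- replicates 3 and 4 of the 8 could move it. The single FR3 Klrg1+ array could not be left out, so calls in FR3 Klrg1+ against FR3 Klrg1- were not checked against it. Without the array set as a block, 7 of 27 calls on the lists and markers were kept in FR3 Klrg1- against FR1, 1 of 20 against FR2, 1 of 12 in FR2 against FR1 and 1 of 12 in FR3 Klrg1+ against FR3 Klrg1-. Larger changes without the block were seen, with no call, for Pik3cd (-1.53), Bcl2l11 (-2.13) and Itgb7 (-1.98) in FR3 Klrg1- against FR1 and for Itgb7 (-1.84) against FR2. Of 21 measured genes of the FOXO family and its PI3K-AKT control, 3 fell in FR3 Klrg1- against FR1. Sgk3, a kinase related to AKT, fell by 2.01 ± 0.15, Pik3r5, a regulatory subunit of PI3K gamma, fell by 1.19 ± 0.13, and Pik3cd, the catalytic subunit p110 delta, fell by 0.80 ± 0.14. Sgk3 fell by 1.21 ± 0.15 in FR2 against FR1, as 1 of 21. Foxo3, a FOXO paralogue, differed by -0.29 ± 0.12 in FR3 Klrg1- against FR1 and did not pass (limma adjusted p = 0.213). In FR3 Klrg1- against FR2, 2 of the 21 fell, and in FR3 Klrg1+ against FR3 Klrg1- 1 of them fell. The list had 0 that rose in the 4 comparisons, with 2 higher at an unadjusted p under 0.05 (limma) in FR3 Klrg1- against FR1, 0 against FR2, 2 in FR2 against FR1 and 1 in FR3 Klrg1+ against FR3 Klrg1-.

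Genes reported elsewhere as FOXO1 targets moved in both directions. Of 14 measured, 2 rose and 3 fell in FR3 Klrg1- against FR1. Bcl6, which encodes a transcriptional repressor found in follicular T cells, rose by 1.02 ± 0.17. Bcl2l11, which encodes the death factor BIM, fell by 1.39 ± 0.14, and Pik3ip1, an inhibitor of PI3K, fell by 1.11 ± 0.16. In FR2 against FR1, 2 fell, with Bcl2l11 at -1.47 ± 0.14, and 0 rose (limma, 1 at an unadjusted p under 0.05). In FR3 Klrg1- against FR2, 3 rose and 1 fell, with Bcl6 at 1.39 ± 0.17. Il7r, the IL-7 receptor chain, was higher by 0.83 ± 0.20 in FR3 Klrg1+ against FR3 Klrg1- (limma adjusted p = 0.0273), as 1 that rose beside 1 that fell. Without FR3 Klrg1- replicate 4 Il7r was at 0.63 and did not pass (limma adjusted p = 0.0658).

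Among 15 other KLF genes, Klf7 fell by 1.63 ± 0.13 in FR3 Klrg1- against FR1 and fell by 0.97 ± 0.13 in FR2 against FR1. Klf4, which restrains the proliferation of mouse CD8 T cells, rose by 1.03 ± 0.13 in FR3 Klrg1- against FR1, and without the array set as a block it was at -0.36. In that comparison 1 rose and 2 fell, and in FR2 against FR1 1 fell and 0 rose (limma, 4 at an unadjusted p under 0.05). In FR3 Klrg1- against FR2, 1 rose and 2 fell, and in FR3 Klrg1+ against FR3 Klrg1- 0 fell (limma, 1 at an unadjusted p under 0.05) while Klf12 rose by 1.26 ± 0.22. Of the reported KLF2 or KLF3 targets, 2 were measured. Itgb7, the integrin chain of gut homing, fell by 1.07 ± 0.13 in FR3 Klrg1- against FR1 and fell by 0.92 ± 0.13 against FR2. Lgals3, repressed by KLF3 in mouse tissues, differed by -0.16 ± 0.13 in FR3 Klrg1- against FR1 and did not pass (limma adjusted p = 0.631). Against FR2 both were called, with Lgals3 at -0.65 ± 0.13 (limma adjusted p = 0.0102). Lgals3 did not pass without FR3 Klrg1- replicate 1 (limma adjusted p = 0.146), FR2 replicate 1 (0.124) or FR2 replicate 2 (0.0518). In FR2 against FR1 and in FR3 Klrg1+ against FR3 Klrg1- 0 of the 2 passed (limma, 1 higher at an unadjusted p under 0.05 in each).

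Of 23 measured genes of S1P metabolism and receptor signalling, 2 rose in FR3 Klrg1- against FR1 and 1 in FR2 against FR1, while 0 fell in either (limma, 4 and 0 at an unadjusted p under 0.05). In FR3 Klrg1- against FR2, 1 rose and 1 fell, and the same counts held in FR3 Klrg1+ against FR3 Klrg1-. S1pr2, a receptor that restrains migration, differed by 0.32 ± 0.14 in FR3 Klrg1- against FR1 and by 0.42 ± 0.14 in FR2 against FR1 and did not pass in either (limma adjusted p = 0.242 and 0.113). Plpp1, a lipid phosphatase that acts on S1P outside cells, was at 5.88 in FR3 Klrg1+ and averaged 7.57 in FR3 Klrg1- replicates 3 and 4, where it fell by 1.69 ± 0.28 in FR3 Klrg1+ (limma adjusted p = 0.0036). The list medians lay between -0.06 and 0.13.

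Of 18 measured genes of homing, adhesion and egress outside the axis, 3 rose and 3 fell in FR3 Klrg1- against FR1. Rasgrp2, which activates integrins through RAP1, fell by 2.32 ± 0.14, Ccr9, a gut homing receptor, fell by 1.46 ± 0.17, and Selplg, the P-selectin ligand, fell by 0.89 ± 0.13. Chst2, a sulfotransferase of selectin ligands, rose by 1.40 ± 0.14, the integrin chain Itgal by 0.99 ± 0.13 and Itgb1 by 0.79 ± 0.13. Without the array set as a block Itgal was at 0.05 and did not pass (limma adjusted p = 0.97). In FR2 against FR1, 4 rose and 1 fell. Itgb1 rose by 1.48 ± 0.13, Chst2 by 1.08 ± 0.14 and Gcnt1, a glycosyltransferase of selectin ligands, by 1.01 ± 0.15. In FR3 Klrg1- against FR2, 2 rose and 4 fell, with Rasgrp2 at -1.59 ± 0.14 and Ccr9 at -1.04 ± 0.17. In FR3 Klrg1+ against FR3 Klrg1-, 0 rose (limma, 3 at an unadjusted p under 0.05) and Gpr183, an oxysterol receptor that positions lymphocytes, fell by 0.82 ± 0.17.

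**Figure D4:**
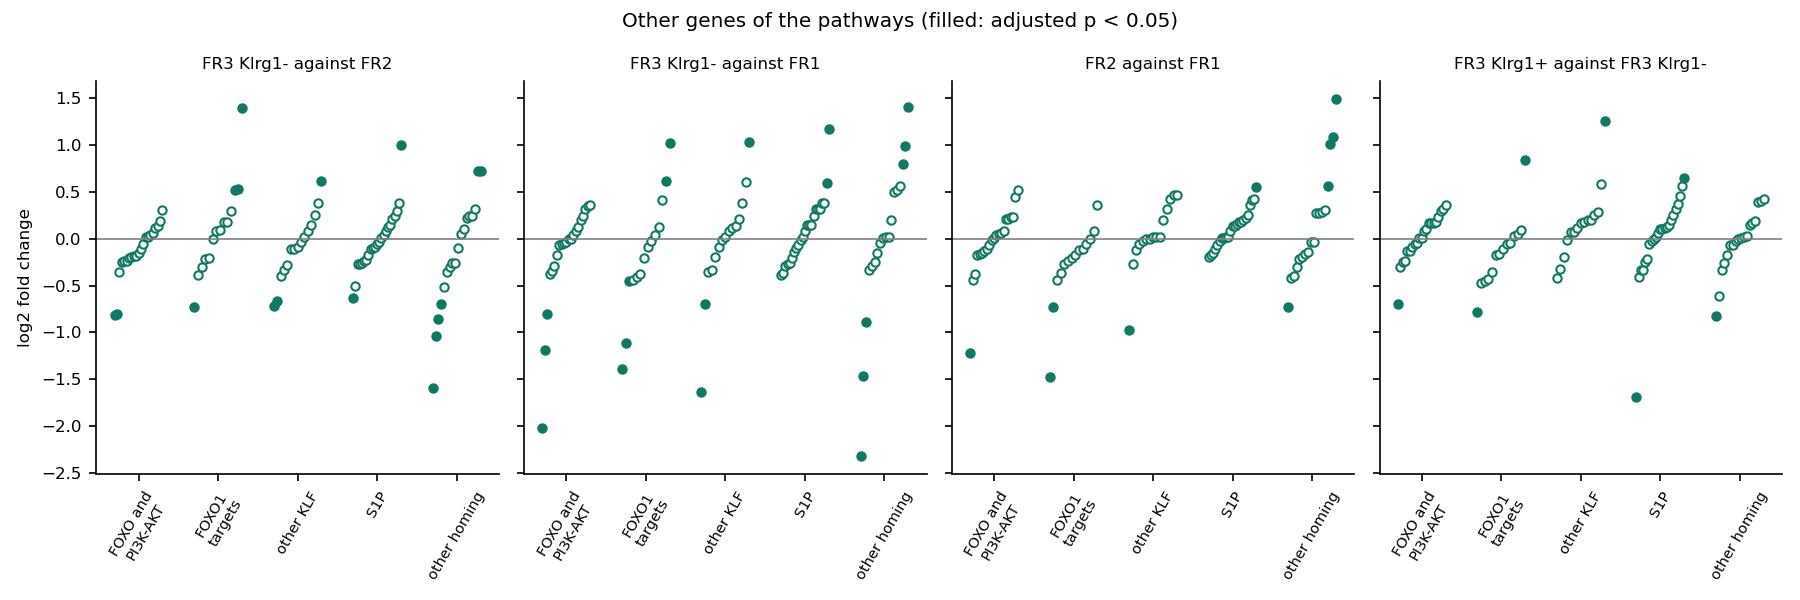
Log2 fold change (y axis) of the other measured genes of the pathway, sorted within each of 5 lists (x axis), in the 4 comparisons. Filled points passed an adjusted p of 0.05 (limma). Most points are open and lie near 0, and the lowest filled point in FR3 Klrg1- against FR1 is Rasgrp2 at -2.32.

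After the mean of each array set was removed, S1pr1 and Klf3 had a Pearson r of 0.978 over the 9 arrays, Klf2 and S1pr4 of 0.945, and Klf2 and S1pr1 of 0.939. The arrays share groups and a platform, so these values only describe how the profiles line up. FR1 and FR2 lay only in the first set, so removing set means also removed part of the group differences. The values below share this limit. Ccr7 lined up less with S1pr1 (0.358), Klf2 (0.380) and S1pr4 (0.285), and more with Foxo1 (0.726). Foxo1 itself lined up more with Klf3 (0.847) and S1pr1 (0.794) than with Ccr7, and less with Klf2 (0.691) and S1pr4 (0.596). Among 9463 genes above the median level, the profile most like S1pr1 was that of Ripor2 (0.997), which also stood second for Klf3 (0.980) after Rasgrp1 (0.987). The nearest to Klf2 was Dgkd (0.993), to S1pr4 Fbxl22 (0.991), to Ccr7 Nsg2 (0.993), to Foxo1 Sh3pxd2a (0.980) and to S1pr5 Hnrnpl (0.947).

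Markers of other cell types moved beside some of these results. The NK list, 6 of 7 measured, averaged 4.33 to 4.51 in FR3 Klrg1- replicates 1 and 2, 3.97 to 4.14 in FR2 and 4.10 to 4.16 in FR1. Its member Klrb1c, 1 of 6, rose by 1.15 ± 0.14 in FR3 Klrg1- against FR1 and by 1.09 ± 0.14 against FR2. Of the B cell list, 1 of 6 fell in FR3 Klrg1- against FR1. The 2 CD8 genes averaged 6.62 to 6.68 in FR3 Klrg1- replicates 1 and 2, 6.75 to 6.88 in FR2 and 6.99 to 7.19 in FR1, at percentiles 52.0 to 62.7 of all genes on an array. Of them Cd8b1 fell by 0.55 ± 0.13 in FR3 Klrg1- against FR1 (limma adjusted p = 0.0154), while Cd8a differed by -0.32 ± 0.16 and did not pass (0.318). With 1 array left out the Cd8b1 difference ran between -0.63 and -0.48, and its call was not always kept. In the second set the macrophage and monocyte list averaged 5.34 in FR3 Klrg1+ and 5.86 to 6.10 in FR3 Klrg1- replicates 3 and 4. The 7 measured genes of that list had differences of -0.43 to -1.12 there, with a median of -0.57 against 8.55e-04 for all genes, and 6 were lower at an unadjusted p under 0.05 (limma). Of these Vcam1 passed the adjusted test, at -1.12 ± 0.22 (limma adjusted p = 0.0092). Of 6 dendritic cell genes 1 passed, Flt3, which rose by 0.91 ± 0.15. The part of these cells in the results was not tested.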

How the data were processed

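RNA of sorted splenic Tregs, 20 to 50 ng per sample, was amplified once and read on Affymetrix Mouse Gene ST 1.0 arrays, per the labels' protocols. The deposited values are log2 intensities made with RMA, per the submitters' processing notes, which name no version here. Of 35556 probe sets, 21789 had 1 gene symbol, 1621 had several and 12146 were not in the probe table. The brightest probe set per gene was kept, with no intensity filter. Groups came from the labels' markers. All tests used limma 3.58.1 in R 4.3.3, in 1 fit over the 9 grouped arrays with group and array set (residual df 4, prior df 10.6), Benjamini-Hochberg adjustment over 19938 genes and two-sided tests. The fit was tested on simulated data.

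Genes, lists (145 of 160 symbols matched) and array sets were chosen with earlier results of these data known. Of each list, no more than 3 called genes in each direction, taken by size of change, could be named, and the others named with values were chosen after those were seen (Foxo3, S1pr2, Lgals3 against FR1). The genes most alike to each gene were ranked by Pearson r over the 9 arrays after removal of set means, among genes above the median level. The contrast between the CD62L and CD69 steps was added after the data were seen, as were the alternatives for the lists. The spread of FR3 Klrg1+, with 1 array, was taken from the other groups. Replicates are called biological in the labels, and nothing used here says whether RMA was run on all arrays at once.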

Additional observations from a re-analysis of the deposited data

How the results depend on the processing

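Genes called in FR3 Klrg1- against FR1 numbered 1632, with 439 without the array set as a block, 429 with a log2 change of 1 or more required, and 910 to 2063 with 1 array left out. In FR3 Klrg1- against FR2 they numbered 948, with 55 without the block, 1618 with array weights, 1586 with the replicate block, 145 with a change of 1 or more required, and 302 to 1318 with 1 array left out. In FR2 against FR1 they numbered 850, with 52 without the block, 1331 within the first set, 1401 without dim genes, 1669 with the replicate block, 158 with a change of 1 or more required, and 253 to 1331 with 1 array left out. Quantile normalization there gave 418 higher and 318 lower, against 391 and 459. In FR3 Klrg1+ against FR3 Klrg1- they numbered 989, with 22 without the block, 212 with a change of 1 or more required, and 721 to 1553 with 1 array left out. Of the 7 genes, 5 were called in FR3 Klrg1- against FR1 (4 to 6 over the alternatives, with Foxo1 the sixth), 4 against FR2 (1 without the block, 3 to 4 with 1 array left out), 2 in FR2 against FR1 (0 without the block, 1 with a change of 1 or more required, 1 to 2 with 1 array left out), and 1 in FR3 Klrg1+ against FR3 Klrg1- (0 without the block, 3 with an intensity trend, 3 without dim genes). Differences of the 7 genes that changed sign had not passed in either fit. Without the block these were Ccr7 in FR3 Klrg1- against FR2 (-0.25) and Klf2 (-0.77) and S1pr4 (-0.36) in FR3 Klrg1+ against FR3 Klrg1-. With the replicate block they were S1pr4 (-0.072) and S1pr5 (-0.051) in FR3 Klrg1+ against FR3 Klrg1- and S1pr1 in the set difference (-0.014). After quantile normalization they were Foxo1 (0.014) and S1pr5 (-0.0047) in FR2 against FR1 and S1pr1 in the set difference (-0.028). With 1 array left out, S1pr5 ran between -0.11 and 0.048 in FR3 Klrg1- against FR1, -0.022 and 0.17 in FR2 against FR1, -0.051 and 0.21 in FR3 Klrg1+ against FR3 Klrg1-, -0.19 and 0.070 in the set difference, and -0.37 and 0.0125 in the difference between steps. S1pr4 ran between -0.072 and 0.39 in FR3 Klrg1+ against FR3 Klrg1-, and in the set difference Klf3 ran between -0.10 and 0.089 and S1pr1 between -0.037 and 0.069. Genes of the lists that changed sign without the block were Cd4 (-0.34) and Klf4 (-0.36) in FR3 Klrg1- against FR1, and Klf4 (-0.78), Itgal (-0.22) and Cxcr4 (-0.31) against FR2. Without the block FR3 Klrg1- averaged all 4 replicates, from both sets, so the set difference entered the differences of these genes. Causes of the other sign changes were not tested. Same-numbered replicates of the first set deviated together at correlations of 0.14 (FR3 Klrg1- and FR1), 0.02 (FR3 Klrg1- and FR2) and 0.18 (FR2 and FR1) across genes. With 2 replicates per group, these values do not settle whether same-numbered arrays were paired, and the main fit did not pair them. The replicate block gave 6, 4, 2 and 1 of the 7 genes in the 4 comparisons. With 2 arrays or 1 in a group of a set, precision rests on the spread pooled over 9 arrays, and the array set stands for a difference of unknown source.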

Other observations

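The array placed in no group correlated at 0.973 to 0.975 with the arrays of the second set and at 0.904 to 0.917 with those of the first. Klrg1 stood at 12.41 on it, beside 12.33 in FR3 Klrg1+, 7.27 and 7.47 in FR3 Klrg1- replicates 3 and 4 and a mean of 5.61 in FR1, although its marker text reads Klrg1-. Ccr7 was at 6.72, beside 6.84 in FR3 Klrg1+, 9.15 and 9.37 in FR3 Klrg1- replicates 3 and 4, and a mean of 11.73 in FR1. FR1 lay in the first set, so its means here also hold any set difference. S1pr1 was at 9.23, Foxo1 at 8.27, Klf2 at 7.58, Klf3 at 9.04, S1pr4 at 7.87 and S1pr5 at 6.28. The FR3 Klrg1+ values of these 6 genes were 9.20 for S1pr1, 8.29 for Foxo1, 7.73 for Klf2, 8.77 for Klf3, 8.06 for S1pr4 and 6.10 for S1pr5. Cd69 was at 9.86 on it and at 9.86 in FR3 Klrg1+. The array entered no comparison.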
